A study of Mus musculus with 4 samples.

Results

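The 10 genes described here, Vil1, Pls1, Espn, Eps8, Myo1a, Ezr, Cdhr2, Cdhr5, Ush1c and Myo7b, encode proteins that build the microvilli of the enterocyte brush border and hold their tips together. They were chosen by name, as the listed actin, myosin and cadherin genes of the brush border, by a rule that uses no measured value, at a time when earlier results of these data were known. All 10 were among the 55487 genes listed, and all 10 were among the 17155 genes that passed the filter on low counts and were tested. RNA-seq was performed on mouse small intestinal (SI) organoids, which are epithelial cultures grown from isolated crypts, and the comparison asks how these genes stand when miR-181a-5p is overexpressed. All 4 libraries came from organoids that had been infected with a lentivirus and kept in puromycin at 2 μg/ml. In 2 libraries, here replicates 1 and 2, the virus expressed the miRNA mimic control. In the other 2, here replicates 3 and 4, it expressed the miR-181a-5p mimic. These numbers were read from the last digit of each library title. A difference that follows the numbers cannot be told apart from one between the groups. The promoter that drives the mimic and the number and age of the mice behind the organoids are not given in the sources used here. It is not stated whether libraries of a group came from separate cultures, so p-values measure the spread between these libraries, which may be technical. Mature miRNAs are not captured by such libraries, and how far miR-181a-5p was raised was not analysed here.

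A microvillus is a finger of apical membrane around a core of parallel actin filaments. Bundling proteins hold the filaments side by side, a capping protein sits at their growing ends, and ezrin and a class I myosin tie the bundle to the membrane. In enterocytes the tips of neighbouring microvilli are joined by a pair of protocadherins, which bind each other between microvilli and are anchored inside the cell by a scaffold and a class VII myosin. This intermicrovillar adhesion complex draws microvilli into clusters as the cell matures, and its parts resemble the Usher proteins of hair cell stereocilia.

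A miRNA recognizes its targets mainly through its seed, bases 2 to 8, so the mature sequence and its matches in the 3' UTRs of the 10 genes are shown first. The mouse sequence from RefSeq (GRCm38.p6), 5' to 3' with the seed in capitals, is encoded at 2 loci, Mir181a-1 on chromosome 1 from 137966468 to 137966490 and Mir181a-2 on chromosome 2 from 38852741 to 38852763, both on the plus strand.
mmu-miR-181a-5p: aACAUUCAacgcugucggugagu
The matches searched on the transcript strand were TGAATGT (7mer-m8), TGAATGTA (8mer, the same letters followed by A) and GAATGTA (7mer-A1), with an 8mer counted once and as an 8mer only. In the longest annotated 3' UTR of each gene, 2 of the 10 genes held a match. Pls1 held a 7mer-m8 in a 3' UTR of 1660 bases, at chr9:95753367-95753373 on the minus strand, and Eps8 held an 8mer in a 3' UTR of 1771 bases, at chr6:137478272-137478279 on the minus strand. Both are shown with 10 bases on either side and the match in capitals.
Pls1: atattaattcTGAATGTgaatatcgtt
Eps8: agccagacctTGAATGTAtgaatagact
Of 12908 tested genes with an annotated 3' UTR of at least 50 bases, 24.4% held a match of any of these kinds, 14.7% a 7mer-m8 and 6.25% an 8mer. The other 8 genes had none in 3' UTRs that ran from 82 bases in Cdhr2 to 1262 bases in Ezr. A match is a description of letters and not a site of action.

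Per transcript length and library (TPM), the 10 genes were abundant. Vil1, which encodes the actin-bundling and -severing protein villin, had the highest level, at 256 and 287 TPM in the mimic controls and 238 and 282 TPM in the miR-181a-5p mimic libraries. Its mean TPM exceeded that of 97.7% of tested genes, and no other of the 10 genes reached its range. Espn, the gene of the bundling protein espin, was lowest, with 18.8 and 27.6 TPM in the control libraries against 19.95 and 24.1 TPM in the mimic libraries, and it still exceeded 70.4% of tested genes. Vil1 and Espn stood apart from their neighbours in the order of levels, so that neither overlapped the range of the gene next to it. Between them lay Pls1, Ezr, Cdhr5, Cdhr2, Ush1c, Myo1a, Myo7b and Eps8, in falling order of mean TPM from 131 to 54.3. Each of these neighbouring genes overlapped the next in range over the 4 libraries. Within every single library, however, Pls1, Ezr and Cdhr5 stood above Cdhr2, and Cdhr2 above Ush1c. Myo1a, Myo7b and Eps8 stood below Ush1c in each. The order among Pls1, Ezr and Cdhr5 and among Myo1a, Myo7b and Eps8 changed between libraries. The first place changed in no library, but Ezr was the second gene in both control libraries and the fourth in both mimic libraries, where Pls1 and Cdhr5 stood above it. Summed over the 10 genes, the level was 916 and 1075 TPM in the control libraries against 920 and 1094 TPM in the mimic libraries, so the groups overlapped.

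**Figure D1:**
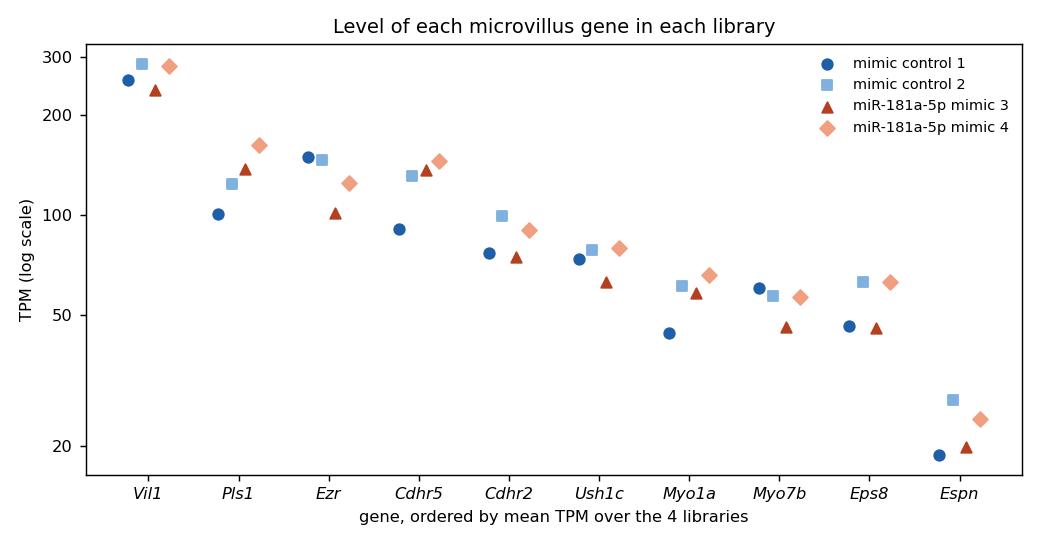
TPM (log axis) of the 10 genes in the 2 mimic control libraries (circles and squares) and the 2 miR-181a-5p mimic libraries (triangles and diamonds), with genes in falling order of mean TPM. Vil1 lies between 238 and 287 TPM and Espn between 18.8 and 27.6 TPM, and the groups overlap for Vil1 and Espn as for Eps8.

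In organoids with the miR-181a-5p mimic, 0 of the 10 genes differed from the mimic control at an adjusted p of 0.05 by the quasi-likelihood test of edgeR, adjusted over all tested genes by the Benjamini-Hochberg method. Among all tested genes 3.38% passed, and 1.98% passed with a fold change of at least 2 in addition, so a count of 0 among 10 is near the background. At an unadjusted p under 0.05 there were 2 of the 10 genes, Ezr and Myo7b, against 24.5% of tested genes. DESeq2 and the exact and likelihood-ratio tests of edgeR each passed 1 of the 10, Ezr, where they passed 8.59%, 10.4% and 10.9% of all genes with an adjusted p, so that 1 of 10 is near those backgrounds. Passing in limma on log2(TPM + 1) were 0 of the 10, but only 75 genes in all passed there. CPM, which here are counts scaled to library size with TMM factors, did not overlap between the groups for 5 of the 10 genes, 2 higher and 3 lower with the mimic, against 58.4% of tested genes (28.9% higher and 29.5% lower). The log2 fold changes, mimic over control, ran from -0.44 for Ezr to 0.32 for Cdhr5 with a median of -0.12, beside a median of -0.01 over all tested genes. The 95% interval of each of the 10 lay within a 2-fold change in either direction, as it did for 66.4% of tested genes. In bulk RNA, fewer cells of a type and less RNA per cell cannot be told apart. Permuting 2 libraries against 2 for any 1 of these genes could give no exact p smaller than 0.333, and the edgeR test draws on the spread that its model shares across genes.

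**Figure D2:**
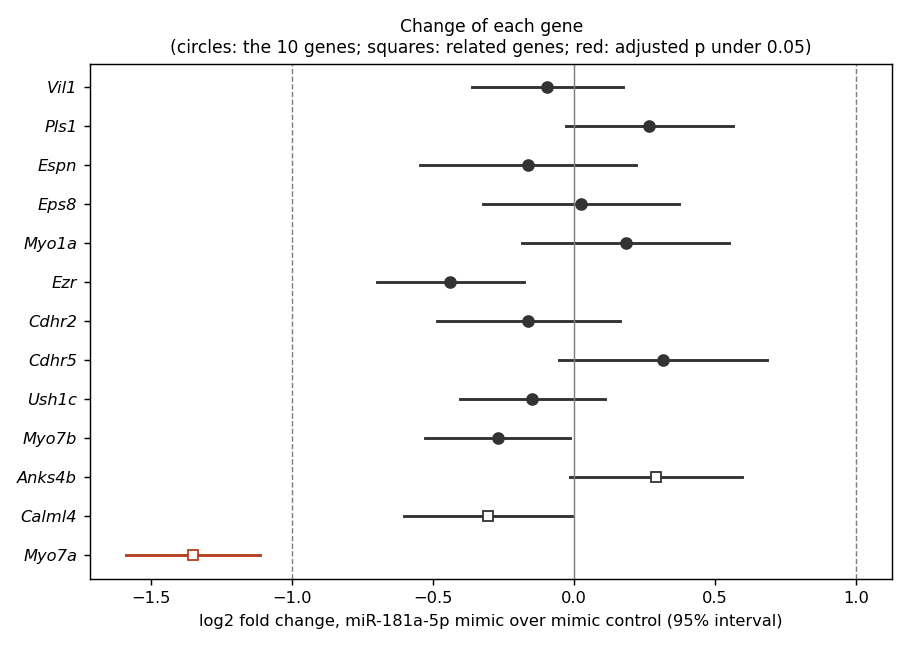
Log2 fold change, miR-181a-5p mimic over mimic control, with its 95% interval from edgeR's quasi-likelihood fit, for the 10 genes (circles) and for Anks4b, Calml4 and Myo7a (squares), with dashed lines at a 2-fold change. All 10 intervals stay inside the dashed lines, while that of Myo7a, from -1.59 to -1.11, lies wholly below -1.

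The bundling and capping genes showed no change that passed the test. Vil1 lies on chromosome 1 (GRCm38) from 74409376 to 74435559 and had 577 and 660.2 CPM in the control libraries against 557 and 603 in the mimic libraries. The groups overlapped, with the highest value in control replicate 2. Usp37, whose exons overlap Vil1 on the opposite strand, had 70.8 to 80.5 CPM. For Vil1 the log2 fold change was -0.09 with a 95% interval from -0.36 to 0.17. Pls1, on chromosome 9 from 95752642 to 95845311, encodes plastin 1 (fimbrin), the bundler that spaces the filaments of the core. It had 279.8 and 343 CPM in the control libraries against 360.5 and 389 in the mimic libraries. Both mimic libraries were above both controls, but the controls differed from each other by as much as the group means did, and the log2 fold change of 0.27 (standard error 0.13, interval -0.03 to 0.56) had an adjusted p of 0.242 in edgeR's quasi-likelihood test. Pls1 is also the gene with the 7mer-m8 match printed above, and any effect of that match was not tested. Espn, on chromosome 4 from 152120331 to 152152371, had 28.8 and 39.8 CPM in the control libraries against 28.5 and 32.6 in the mimic libraries. Its control replicate 1 and both mimic libraries lay close together below control replicate 2, and the log2 fold change was -0.16 (interval -0.55 to 0.22). Eps8 encodes a protein that caps and bundles filaments at the microvillus tip, and it lies on chromosome 6 from 137477245 to 137654876. Its CPM were 127 and 156 in the control libraries against 127 and 161 in the mimic libraries. The spread within each group covered the same range in both groups, and the log2 fold change was 0.02 (interval -0.32 to 0.37). Eps8 is the gene with the 8mer match printed above.

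The genes that tie the bundle to the membrane went to opposite sides of 0, and neither passed the adjusted test. Myo1a, on chromosome 10 from 127705170 to 127720940, encodes the class I myosin that bridges core and membrane. It had 122 and 170.4 CPM in the control libraries against 163 and 169 in the mimic libraries. Control replicate 1 stood below the other 3 libraries, and the log2 fold change was 0.18 (interval -0.18 to 0.55). Ezr, on chromosome 17 from 6738041 to 6782784, encodes ezrin, which links actin to membrane proteins once it is phosphorylated. It had 379 and 360.1 CPM in the control libraries against 253 and 292 in the mimic libraries, which is 369 ± 13.1 against 272 ± 27.5 (SD, n = 2). Both mimic libraries were below both controls, and the gap between the groups was larger than the gap within either group. Its log2 fold change of -0.44 (standard error 0.11, interval -0.70 to -0.18) corresponds to 0.738 times the control level, with an adjusted p of 0.0783 in edgeR. The adjusted p was under 0.05 in 4 of 12 other settings that used all libraries, at 0.0183 in DESeq2, 0.0244 in edgeR's exact test, 0.0236 in its likelihood-ratio test and 0.00538 without a filter on low counts. Those settings called 8.59%, 10.4%, 10.9% and 9.52% of all genes with an adjusted p. In the other 8 settings it ranged up to 0.346. Ezr had no miR-181a seed match of the kinds searched. An exon of Sytl3 overlaps Ezr on the opposite strand, and whether the counting used strand is not given in the sources used here, and Sytl3 had at most 1.68 CPM in any library.

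The 4 genes of the intermicrovillar adhesion complex stood on both sides of 0, and 0 of the 4 passed the adjusted test. Cdhr2 and Cdhr5 encode the protocadherins that meet between the tips. Cdhr2, on chromosome 13 from 54701461 to 54736662, had 261 and 336 CPM in the control libraries against 254 and 280.1 in the mimic libraries. Its groups overlapped, and the log2 fold change was -0.16 (interval -0.49 to 0.16). Cdhr5, on chromosome 7 from 141269083 to 141276786, had 156 and 219 CPM in the control libraries against 239 and 229 in the mimic libraries. Both mimic libraries were above both controls, with control replicate 1 far below the other 3 libraries, and the log2 fold change of 0.32 (standard error 0.16, interval -0.05 to 0.69) had an adjusted p of 0.263 in edgeR. Ush1c encodes harmonin, the PDZ scaffold of the complex, and lies on chromosome 7 from 46195350 to 46238503. It had 121 and 124.9 CPM in the control libraries against 102 and 119.8 in the mimic libraries. The groups did not overlap in CPM, but control replicate 1 and mimic replicate 4 were almost level and the groups overlapped in TPM, and the log2 fold change was -0.15 (interval -0.40 to 0.11). The exons of Gm9860 overlap Ush1c on the opposite strand. Gm9860 had 23.7 and 19.3 CPM in the control libraries against 15.03 and 17.7 in the mimic libraries. Its log2 fold change was -0.39 (adjusted p = 0.173 in edgeR), and any part of this overlap in the counts of Ush1c was not tested. Ush1c was the only one of the 10 genes whose expected counts were not whole in all 4 libraries. Myo7b encodes the motor that carries and holds the complex at the tips, and lies on chromosome 18 from 31959234 to 32036961. It had 332 and 311 CPM in the control libraries against 249 and 284 in the mimic libraries. Both mimic libraries were lower, and the log2 fold change of -0.27 (standard error 0.11, interval -0.53 to -0.01) had an adjusted p of 0.188 in edgeR.

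Anks4b and Calml4 encode the other known partners of this complex, a scaffold and a light chain of the myosin. They were not in the list of 10 and stood apart in opposite directions as well. Anks4b had 99.3 and 124.7 CPM in the control libraries against 144 and 130.2 in the mimic libraries, a log2 fold change of 0.29 (interval -0.01 to 0.59, adjusted p = 0.220 in edgeR). Calml4 had 180.1 and 195 CPM in the control libraries against 135 and 168 in the mimic libraries, a log2 fold change of -0.30 (interval -0.60 to -0.01, adjusted p = 0.195 in edgeR). For both genes the groups did not overlap in CPM, as for 58.4% of tested genes, and those of Calml4 overlapped in TPM. Neither gene passed the adjusted test. A ratio of TPM values within 1 library does not depend on how libraries are scaled. Per TPM of Cdhr2, Cdhr5 stood at 1.19 and 1.32 in the control libraries and at 1.83 and 1.62 in the mimic libraries. Anks4b stood at 0.403 and 0.394 per TPM of Cdhr2 in the control libraries and at 0.601 and 0.493 in the mimic libraries. In these 2 of 5 ratios to Cdhr2 the groups were apart, and each had p = 0.333 in an exact permutation test (two-sided), the smallest that 2 against 2 can give, and 0.667 after Benjamini-Hochberg adjustment over the 6 ratios computed. Ush1c per Cdhr2 was 0.965 and 0.790 in the control libraries against 0.837 and 0.884 in the mimic libraries, Myo7b per Cdhr2 was 0.784 and 0.573 against 0.613 and 0.627, and Calml4 per Cdhr2 was 4.05 and 3.49 against 3.03 and 3.51. In these 3 ratios the groups overlapped. The ratio to Cdhr2 was chosen after the values were seen.

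For most of the 10 genes the controls differed from each other more than the groups did. Control replicate 2 was above control replicate 1 in 8 of the 10 genes, against 49.0% of tested genes, by 1.40 times for Cdhr5 and Myo1a, 1.38 times for Espn and 1.28 times for Cdhr2. Ezr and Myo7b were the exceptions, at 0.951 and 0.939 times. The gap between the controls exceeded the gap between the group means for 7 of the 10 genes, against 43.1% of tested genes, and the 3 others were Ezr, Ush1c and Myo7b. As a sum, markers of mature enterocytes were also higher in control replicate 2 than in control replicate 1. Summed over 10 enterocyte markers outside the list, CPM were 5775 in control replicate 1, 6692 in control replicate 2 and 4904 and 4768 with the mimic, and 9 of those 10 markers were higher in control replicate 2 than in control replicate 1. Between the groups the log2 fold changes of these markers ran from -2.14 to 0.69, with 4 above and 6 below 0, and 1 of the 10 passed the adjusted edgeR test. From mimic replicate 3 to mimic replicate 4 the summed CPM of the 10 genes rose, from 2331 to 2559. That of the enterocyte markers did not, at 4904 and 4768. The part of these markers in the values of the 10 genes was not tested. Without control replicate 2, the same test passed 4 of the 10 genes, with 11% of all tested genes passing. These were Cdhr5 (log2 fold change 0.58, adjusted p = 0.0144 in edgeR), Myo1a (0.45, adjusted p = 0.0342) and Pls1 (0.43, adjusted p = 0.0447), which were higher with the mimic, and Ezr (-0.47, adjusted p = 0.0396), which was lower. That fit has a single control library and assumes that it varies like the others. The median over the 10 genes was then 0.06, with 7 above and 3 below 0, whereas without control replicate 1 it was -0.19, with 2 above and 8 below. Ezr, Ush1c and Myo7b stayed below 0 and Pls1 and Cdhr5 above 0 whichever library was left out. They are the 5 genes whose groups did not overlap in CPM, as for 58.4% of tested genes. Leaving out a library could therefore hardly change their sign, and the steady sign is not a separate result. With each library left out in turn, Ezr ranged from -0.54 to -0.33 and Myo7b from -0.36 to -0.17. Ush1c ranged from -0.27 to -0.03, Pls1 from 0.12 to 0.43 and Cdhr5 from 0.09 to 0.58.

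**Figure D3:**
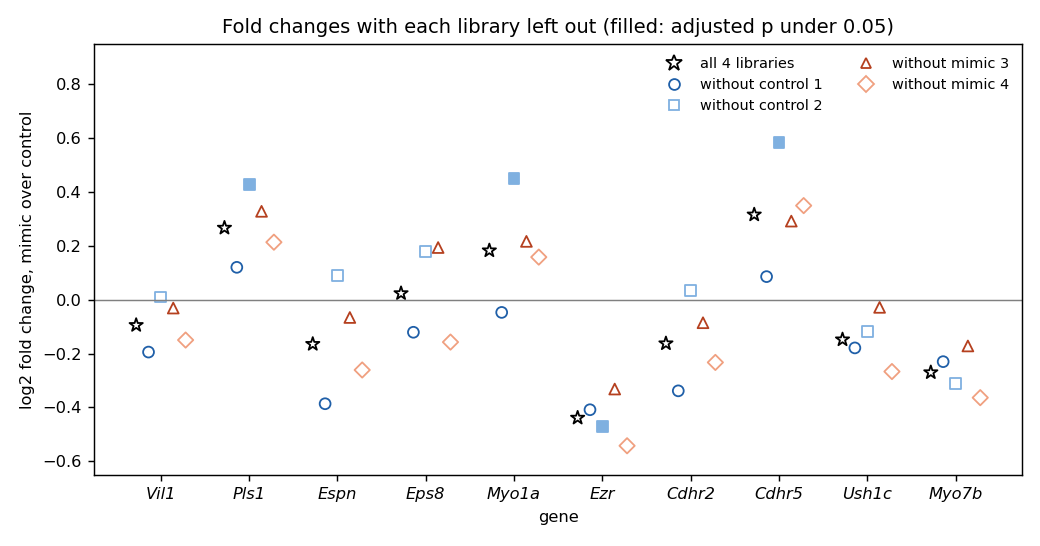
Log2 fold change, mimic over control, of the 10 genes with all 4 libraries (stars) and with each library left out in turn, filled where the adjusted p was under 0.05. Filled points appear only without control replicate 2, for Pls1, Myo1a, Ezr and Cdhr5, and the points of Vil1, Espn, Eps8, Myo1a and Cdhr2 lie on both sides of 0.

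Around the 10 genes, 43 other genes of the microvillus, its scaffolds, actin and apical trafficking were listed, and 36 of them passed the filter on low counts. By the same edgeR test 1 of the 36 was lower (2.17% of all tested genes) and 0 were higher (1.21%), and the median log2 fold change was -0.09. The gene that was lower was Myo7a, the class VII myosin of hair cells and the closest relative of Myo7b, on chromosome 7 from 98051060 to 98119524. It had 117 and 129 CPM in the control libraries against 47.1 and 49.5 in the mimic libraries. Both mimic libraries were far below both controls, and the log2 fold change was -1.35 (standard error 0.10, interval -1.59 to -1.11, adjusted p = 0.00378 in edgeR). Without a filter on low TPM, limma on log2(TPM + 1), which passed only 2 genes in all, did not pass it. Cobl, an actin nucleator gene named here after its value was seen, came next to the threshold, with 169 and 144 CPM in the controls against 112 and 107 and a log2 fold change of -0.52 (adjusted p = 0.0517 in edgeR). Its adjusted p was under 0.05 in 7 of 12 other settings with all libraries. Without control replicate 2, the log2 fold changes were 0.47 for Anks4b, -0.63 for Cobl, -1.83 for Vill, 0.56 for Gsn and -1.28 for Myo7a. These values rest on control replicate 1 as the only control library. Anks4b, Cobl, Vill and Gsn are given here because their calls changed with the setting. The gene with the largest shift among the actin regulators was Vill, a villin relative, with 2.29 and 0.838 CPM in the control libraries against 0.638 and 0.646 in the mimic libraries, a log2 fold change of -1.30 with by far the highest value in control replicate 1, which did not pass (adjusted p = 0.167 in edgeR). Among scaffolds the largest shift was that of Slc9a3r2 at -0.66 (adjusted p = 0.248 in edgeR), a gene at 0.926 to 1.93 CPM. In apical trafficking it was Stx3 at 0.14, and among the stereocilia genes Cdh23 at -0.39, neither past the test. The actin genes themselves did not pass the test, with a log2 fold change of 0.08 for Actb (interval -0.21 to 0.37) and -0.12 for Actg1 (interval -0.41 to 0.17).

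**Figure D4:**
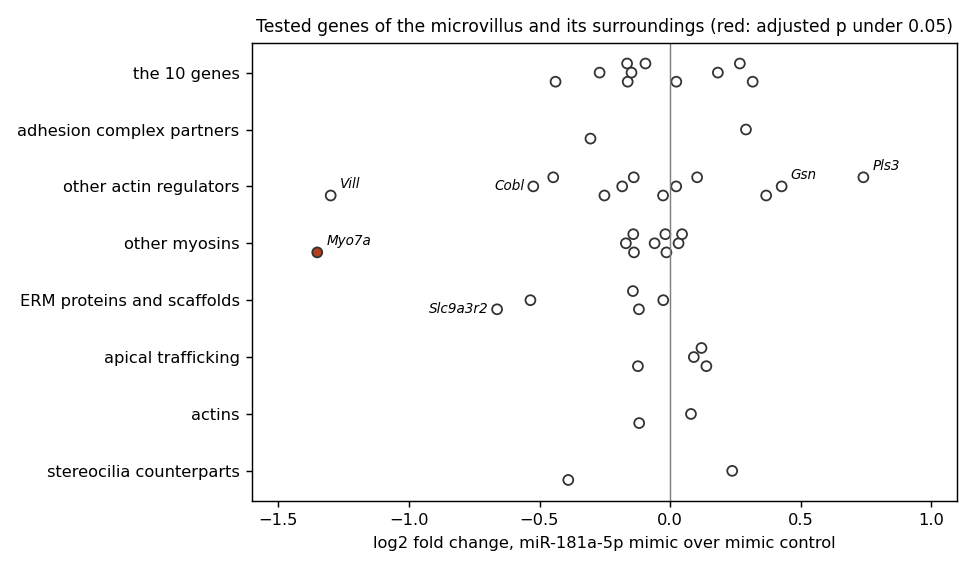
Log2 fold change, mimic over control, of each tested gene in the list of 10 and in 7 lists of other microvillus genes, 1 circle a gene, with the vertical offset used only to separate circles. Myo7a, at -1.35, is the filled circle, the only gene shown that passed an adjusted p of 0.05 by edgeR.

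Several of the 10 genes have relatives that could carry out a like function, and the level per length showed which of them these organoids express. Among the ERM proteins, ezrin was nearly alone, since Rdx (radixin) and Msn (moesin) were at most 0.1 TPM and Ezr took at least 99.9% of the summed TPM of the 3 genes in each library. Espn took at least 99.8% beside Espnl, and Vil1 took 92.5% to 94.5% beside Gsn, Avil and Vill. The class VII myosins were shared. Myo7b took 68.9% and 65.1% of their summed TPM in the control libraries against 80.5% and 83.6% in the mimic libraries, the remainder being Myo7a. The ratio of Myo7a to Myo7b was 0.452 and 0.537 in the control libraries against 0.243 and 0.196 in the mimic libraries. The groups did not overlap, with an exact permutation p of 0.333 (two-sided), 0.667 after adjustment over the 6 ratios. Since Myo7a had already passed the edgeR test as lower, neither this ratio nor the shares are a separate result. Both genes had lower values with the mimic, at log2 fold changes of -1.35 for Myo7a and -0.27 for Myo7b. Plastins were shared between Pls1 and Lcp1, the leukocyte-type plastin. Pls1 took 54.1% and 56.3% of plastin TPM in the control libraries against 58.9% and 62.4% in the mimic libraries, and Pls3 took at most 1.19%. Eps8 was not the main gene of its family. It took between 18.4% and 22.5% in the 4 libraries, below Eps8l3 with 43.3% to 50.6% and Eps8l2 with 28.6% to 32.8%, and the shares of Eps8 and Eps8l3 overlapped between the groups. Those of Eps8l2 did not, by a narrow margin, at 28.6% and 32.46% in the control libraries against 32.8% and 32.49% in the mimic libraries.

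**Figure D5:**
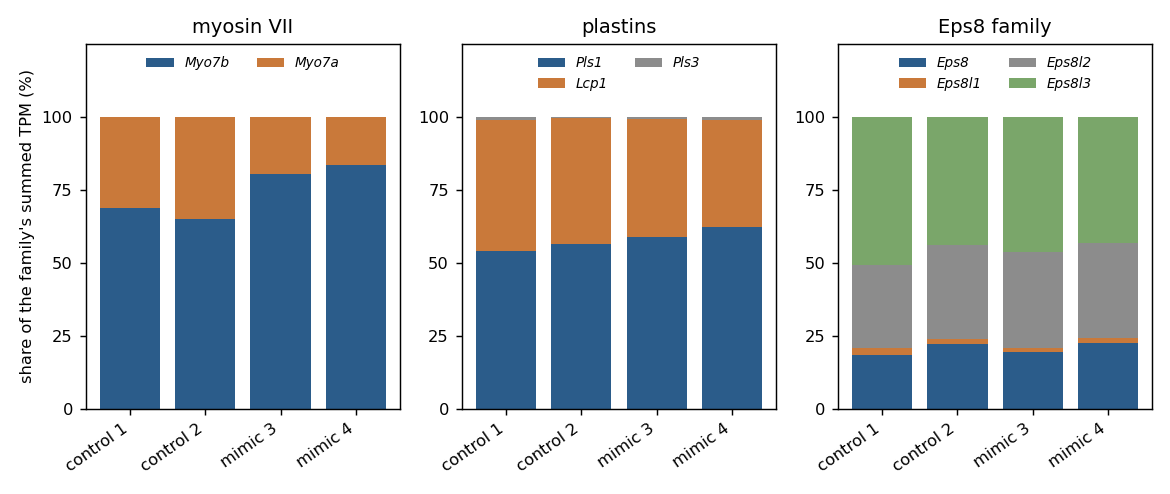
Share of the summed TPM of the class VII myosins, the plastins and the Eps8 family taken by each gene, with 1 stacked bar for each library. Myo7b takes 65.1% and 68.9% in the control libraries against 80.5% and 83.6% in the mimic libraries, while Eps8 stays between 18.4% and 22.5% in all 4 libraries. Myo7b itself was not higher with the mimic, at 59.97 and 57.01 TPM in the controls against 45.78 and 56.42. Myo7a was at 27.1 and 30.61 TPM in the controls against 11.11 and 11.08 with the mimic.

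Since no gene of the 10 passed the test, the profile of the gene with the largest change, Ezr, was compared with 9357 genes of at least 10 CPM by the distance between mean-centred log2 CPM over the 4 libraries. The nearest were Hscb (distance 0.0359), Arrb1 (0.0422) and Bsn (0.0453). Arrb1 had 195 and 192 CPM in the control libraries against 134 and 156 in the mimic libraries. It was picked for its nearness to Ezr, so its like order of libraries is not a separate result. Among the other 9 genes Myo7b was the closest to Ezr, at 0.171, and Cdhr5 the farthest, at 0.893. The distances are a description of 4 libraries.

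The labelled cell type was checked against fixed marker genes. The 6 epithelial markers summed to between 3804 and 4307 CPM in the 4 libraries. Of 6 mesenchymal markers, Col1a2, Col3a1 and Dcn were at 0 in all libraries, and the list summed to 4.85 and 3.805 CPM in the control libraries against 4.85 and 6.96 in the mimic libraries. The 5 leukocyte markers summed to at most 2.58. Tuft cells also carry a tall bundle of actin filaments, and their 6 markers summed to 13.0 and 7.03 CPM in the control libraries against 8.93 and 10.6 in the mimic libraries, with overlapping groups. By the edgeR test, 1 of 5 stem cell markers, 1 of 10 enterocyte markers and 0 of 6 proliferation markers were lower, against 2.17% of tested genes. Of the proliferation markers 1 was higher, against 1.21%. The log2 fold changes of the stem cell markers were above 0 for 3 and below 0 for 2, with a median of 0.05. The stem cell markers summed to 1451 and 922 CPM in control replicates 1 and 2 and to 1023 and 1278 CPM in mimic replicates 3 and 4, so the controls lay outside the mimic libraries on both sides. The 5 Paneth cell markers summed to 831 and 649 CPM in the control libraries against 586 and 787 in the mimic libraries, and the 5 goblet cell markers to 1361 and 1681 against 1907 and 1489. The 6 enteroendocrine markers summed to 596 and 379 against 475 and 449.7.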

How the data were processed

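Trimmomatic and RSEM were named by the authors for read trimming and for quantification against GRCm38 (mm10) transcripts (versions and annotation release are not given in the sources used here). The authors deposited an expected count per gene, estimated by RSEM and not normalized. The deposited TPM values were scaled by the authors for transcript length and library. Supplemental methods describe enzymatic ribosomal RNA depletion, whereas the labels describe poly(A) selection. Another 3 columns in both files matched no sample and were not used.

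Libraries held 31104884 to 38111731 expected counts. Libraries of the same group were compared by chi-square over genes, and the statistic per degree of freedom (30.4 for the control pair, 16.5 for the mimic pair) showed more than sampling noise within each pair. The common biological coefficient of variation was 0.131. Rounded expected counts entered edgeR 4.0.16 (R 4.3.3) with filterByExpr, TMM factors of 0.978 to 1.01 and the quasi-likelihood test, adjusted by the Benjamini-Hochberg method over 17155 genes. Standard errors were derived from the log2 fold change and its F statistic, and 95% intervals from the degrees of freedom of the fit. These steps were tested on counts simulated with the same spread for every gene. Such counts cannot show how the intervals behave under the unequal spread of the control and mimic pairs. Symbols were matched by identifier for 55141 genes, and coordinates and 3' UTRs came from GENCODE M21 (GRCm38). Alternatives were DESeq2 1.42.0, other edgeR tests, normalizations and filters, limma 3.58.1 on log2(TPM + 1) and log2(TPM + 0.1), where fold changes understate those of low genes, and leaving out each library.

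The 10 genes, the other lists and the tests were chosen with earlier results of these data known. Named were all 10 genes, the adhesion partners, Myo7a, the actins, every other microvillus gene past an adjusted p of 0.05, the gene with the largest absolute log2 fold change in each list, and the 3 genes nearest in profile to the member with the largest change. Genes named outside this rule are overlapping genes, paralogues and genes whose call changed with the setting.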

Additional observations from a re-analysis of the deposited data

How the results depend on the processing

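With all 4 libraries, 0 of the 10 genes passed an adjusted p of 0.05 in edgeR's quasi-likelihood test and 1 of 10 passed, namely Ezr, in DESeq2, edgeR's exact test, its likelihood-ratio test and the unfiltered fit. Leaving out a library gave 0 to 4 of the 10 genes, with 4 without control replicate 2. Of the other microvillus genes, 1 passed in the fit as reported and in 12 further settings 0 to 5 did. The count was 2 in DESeq2, in the robust form of the test, with upper-quartile factors and with at least 10 counts in every library. It was 3 in the exact and likelihood-ratio tests, 5 without a filter and 0 in limma on unfiltered log2(TPM + 1). Of all genes with an adjusted p, 8.59% passed in DESeq2 and 9.52% without a filter. The exact and likelihood-ratio tests passed 10.4% and 10.9%. In the robust, upper-quartile and 10-count settings 630, 571 and 550 genes passed. Leaving out a library gave 1 to 5, with 5 without control replicate 2. Over all genes 580 passed. The counts were 1293 in DESeq2, 1788 in the exact test, 1864 in the likelihood-ratio test, 2781 without a filter, 75 and 27 in limma at pseudocounts of 1 and 0.1 and 2 without a TPM filter, and leaving out a library gave 448 to 2016, with 2016 without control replicate 2. The cause of these differences between tests was not tested. Of 160 refits of the 10 fold changes, 142 kept their direction and their side of the threshold, 8 passed the threshold where the reported fit did not, and 10 changed sign. Eps8 changed sign to -0.01 in the 3 limma fits (-0.0138 at pseudocount 0.1 and -0.0135 at pseudocount 1) and to -0.0256 with upper-quartile factors, and leaving out libraries moved it between -0.16 and 0.19. Leaving out libraries also took Vil1 from -0.19 to 0.0104, Espn from -0.39 to 0.089, Myo1a from -0.0469 to 0.45 and Cdhr2 from -0.34 to 0.0341. No paired analysis was made, since the replicate numbers, read from the titles, are not shared between the groups. The smallest count of the 10 genes in any library was 894, in Espn, and the effect of depth on the calls was not tested.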
